A study of Mus musculus with 14 samples.

Results

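How fast labelled RNA disappeared from mouse embryonic stem cells that lack Mettl3 was measured in 7 of the 14 libraries of a pulse-chase series. The 7 are every Mettl3-KO library with over 1000000 total counts. Times are hours after the label was withdrawn, and 0 h, 1 h and 8 h have 2 such libraries each and 3 h has 1. The eighth Mettl3-KO library, replicate 2 at 3 h, held 602297 counts and served only as a check. The series compares WT and Mettl3-KO cells of the E14 line, and 5 WT libraries past the same limit (2 of them at 8 h and 1 at each other time) are used here only to show where the knockout slopes differ. All groups, WT included, had spent 2 weeks on gelatin in serum and LIF with INK128 at 200 nM, which blocks the mTOR kinase and puts embryonic stem cells in a paused state. Every culture was then fed 100 µM S4U, a uridine analogue built into new transcripts, for 12 h before the chase. S4U in the extracted RNA was alkylated with iodoacetamide to make the sequencer read C in its place, and the libraries cover 3' ends. The labels do not state the deleted exons, how many knockout clones were used, or whether replicates were separate cultures, so p-values measure the spread between these libraries, which may be technical. The source field of both Mettl3-KO libraries at 8 h names another line than the E14 of their titles and cell line field, and the libraries are used here as titled.

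Mettl3 is the catalytic subunit of the nuclear complex that writes N6-methyladenosine (m6A) on mRNA. Reader proteins of the YTH family bind methylated transcripts and recruit deadenylases, so that methylation is known for shortening the life of the mRNAs that carry it, among them mRNAs of pluripotency factors. Other features known to affect the lifetime of an mRNA include AU-rich elements, codon usage, microRNA sites and translation. Neither m6A nor these features were measured here.

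Total counts in the 7 libraries ranged from 11136381 to 26654217. Mettl3 itself had between 14 and 55 counts in these libraries and between 151 and 783 in the 5 WT libraries. This is a 3' end count, and which exon was deleted is not given, so residual counts do not measure function. Embryonic stem cell markers were present (Sox2 between 981 and 1903 CPM, Nanog between 217 and 398 CPM), except Dppa5a at 2 to 20 counts. Markers of primitive endoderm, fibroblasts and trophoblast summed to at most 16.2, 8.83 and 2.29 CPM, and Elf5 was at 0. The neural markers summed to between 360 and 589 CPM, nearly all of it Stmn2, against 61.3 to 87.9 CPM in the WT libraries; their part in the results was not tested.

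The label left the Mettl3-KO cells after a lag. Of all counts in a library, 26.1% and 26.6% were conversion counts at 0 h, 25.2% and 26.7% at 1 h, 18.5% at 3 h, and 4.90% and 4.97% at 8 h. The 1 h libraries thus overlapped the 0 h libraries, and the 3 h and 8 h libraries lay below both. On the log2 scale the share fell by 0.32 per hour (SE 0.0212 over 7 libraries), with a two-sided exact permutation p of 0.00476 over 630 arrangements of the hours. Over the 0 h to 3 h libraries alone it fell by 0.17 per hour (exact permutation p = 0.1 over 30 arrangements). The shallow 3 h library had a share of 6.90%, well under its partner. In the median tested gene the labelled share was 30.9% at the start, 30.2% after 1 h, 18.7% after 3 h and 2.46% after 8 h. Its label changed by -0.02 (log2 per hour) in the first hour, by -0.32 between 1 h and 3 h and by -0.53 between 3 h and 8 h. A single slope per gene is therefore an average over a lag and a steeper later loss, and most of it is set by the 8 h libraries.

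**Figure D1:**
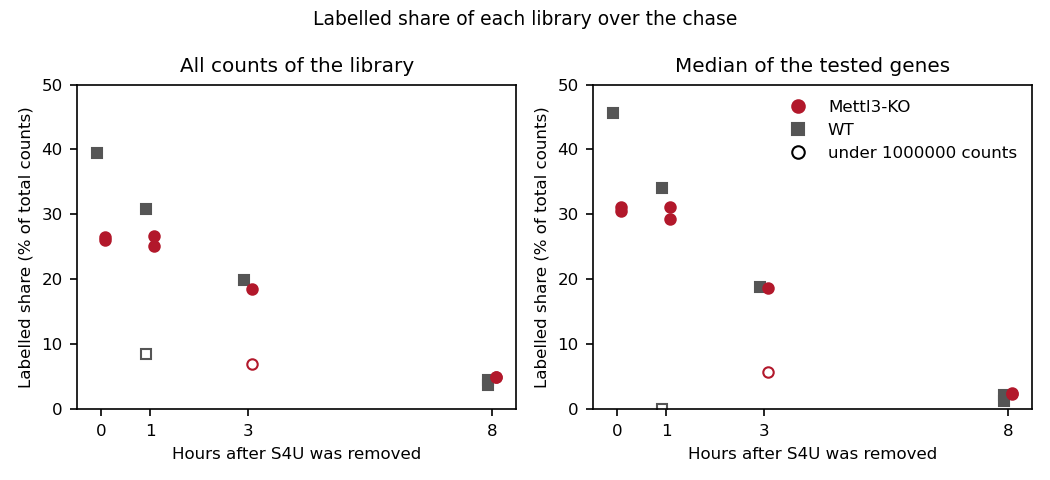
Labelled share (% of total counts) of each library against hours after S4U was removed, for all counts of the library (left) and as the median over tested genes (right), with Mettl3-KO as red circles, WT as grey squares and libraries under 1000000 counts as open symbols. Mettl3-KO libraries started at 26.1% and 26.6% of all counts, stayed near that level at 1 h and reached 4.90% and 4.97% at 8 h.

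The slope of each gene is the change of log2 labelled RNA per hour, with the conversion count scaled by the library's TMM total, and the half-life is the inverse of that slope, the time for a loss of 50%; dilution by growth was not corrected. It was fitted with edgeR's quasi-likelihood model for the 12115 genes (of 36335 named entries) that had 10 or more conversion counts in 3 or more of the 7 libraries. The label fell in 11275 genes (93.1% of those tested) and rose in 6 (0.0495%) at a Benjamini-Hochberg adjusted p under 0.05. The median slope was -0.47, a half-life of 2.11 h. The middle 50% of genes had half-lives between 1.70 h and 2.92 h, and 5% of genes lay below 1.27 h and 5% above 7.68 h. Half-lives over 8 h, fitted for 481 genes, reach past the last collection and are extrapolations. A further 93 genes had a slope at or above 0 and so no half-life. To call a gene short- or long-lived, its slope was tested against the median slope: 550 genes (4.54%) lost label faster than the median gene and 2139 (17.7%) slower. These calls rest on the late chase, since over 0 h to 3 h alone edgeR called no gene in either direction, with 733 faster and 370 slower at an unadjusted p under 0.05. The faster calls numbered 177 without replicate 2 at 8 h, 304 without replicate 1 at 8 h and 339 without replicate 1 at 1 h, and the slower calls 1392 without replicate 2 at 8 h. Where a class below has no faster member in edgeR, at most 2 of its members were faster at an unadjusted p under 0.05, except in the lysosome list with 5.

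Of the 12 short-lived transcripts with the lowest upper bound of the slope, 5 are described in full. For Dazap2, a small proline-rich protein, the labelled share was 33.9% and 35.7% at 0 h, 33.2% and 35.6% at 1 h, 15.9% at 3 h, and 0.515% and 0.487% at 8 h. The 4 early libraries overlapped and both 8 h libraries lay far below. Its slope was -0.88 (SE 0.0792), a half-life of 1.13 h, and its adjusted p against the median gene was 9.26e-06 in edgeR. Fbxo32, a muscle atrophy ubiquitin ligase and FoxO target, had 32.1% and 37.6% at 0 h, 27.2% and 31.0% at 1 h, 11.1% at 3 h and no conversion count in either 8 h library. Its slope was -1.29 (SE 0.274). Crebrf, a regulator of the CREB3 transcription factors, went from 34.3% and 32.7% at 0 h to 21.3% at 3 h and to 4.08% and 0.889% at 8 h, a slope of -0.91. Klhl24, an adaptor of a cullin ubiquitin ligase, was still at 30.4% at 3 h, inside the range of 29.4% to 36.2% of its 4 earlier libraries, and then fell to 0.483% and 2.84%. Hbp1, a repressor of cell cycle genes, was at 35.3% and 37.3% at 1 h, 23.7% at 3 h and 0.418% and 1.84% at 8 h. Total RNA of Crebrf, Klhl24, Hbp1 and Fbxo32 fell too over the chase, by 0.36, 0.33, 0.23 and 0.39 (log2 per hour). A fall of the total adds to the fall of a label that is counted per library: with each gene's own total as the offset, 522 genes were faster than the median gene, 257 of them among the 550. Ypel2 (slope -1.28), Uty (-1.44) and 5 transcripts known only by clone or model names (Gm37423, Gm38067, Gm13378, B230354K17Rik and 2810403D21Rik, with slopes from -1.88 to -0.90) complete the 12.

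**Figure D2:**
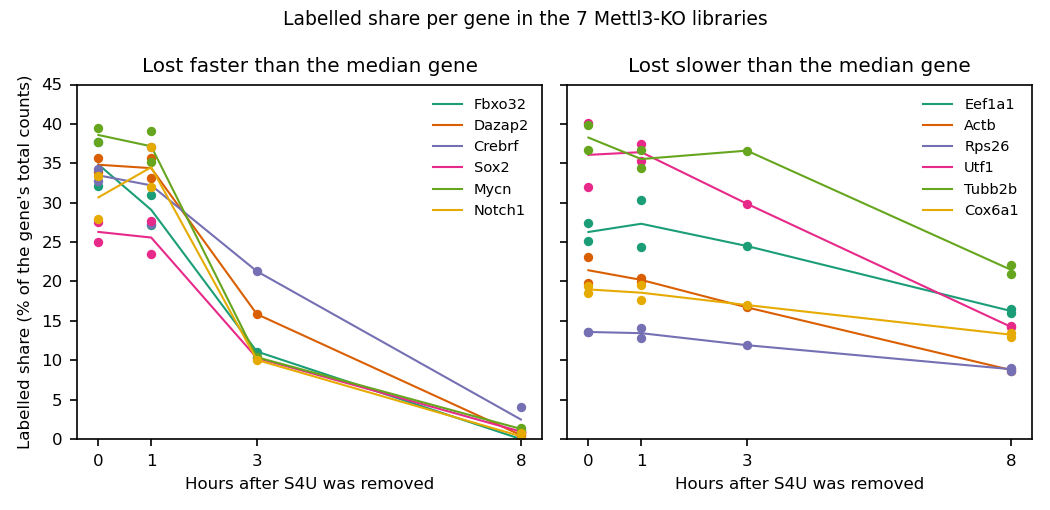
Labelled share (% of the gene's total counts) against hours after S4U was removed for 6 genes called faster (left) and 6 called slower (right) than the median gene; points are the 7 Mettl3-KO libraries and lines join the means at each time. Dazap2 ended at 0.515% and 0.487% of its counts, while Tubb2b ended at 20.9% and 22.1%.

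By class, transcription factors and signalling regulators were on the short-lived side. Changes of total RNA enter these slopes. The median slope of total RNA was -0.045 for mRNAs described as m6A-methylated, -0.038 for pluripotency factors and -0.028 for Zfp genes. Over all tested genes it was -0.0014, and 0.0081 for BMP, Notch and Wnt target regulators. Total RNA fell in 2 of 18, 4 of 28 and 20 of 320 members of the first 3, against 3.39% of all tested genes. Their counts with the own total as the offset are not reported here. Of the 18 mRNAs on a list described in the literature as m6A-methylated, 8 were faster than the median gene and 1 slower, against 4.54% and 17.7% of all tested genes, and their median half-life was 1.62 h. Notch1, a receptor of cell-to-cell signalling, went from 33.4% and 27.9% at 0 h to 10.0% at 3 h and to 0% and 0.713% at 8 h (slope -0.83, SE 0.118). Mycn, a MYC family member, kept 35.2% and 39.1% at 1 h against 37.7% and 39.5% at 0 h, then held 10.4% at 3 h and 1.16% and 1.43% at 8 h (slope -0.64, SE 0.0488, edgeR adjusted p 0.00557 against the median gene). Myc itself was at 50.7% and 46.2% at 0 h, 37.5% and 26.5% at 1 h, 15.2% at 3 h and 0% and 2.44% at 8 h, so its 1 h libraries lay below its 0 h libraries (slope -0.71). Foxo3, a FoxO factor active when growth signalling is low, had a slope of -0.70. The list holds several genes of the pluripotency list, and the counts of the 2 are not independent. The faster members numbered 3 without replicate 1 at 8 h, 4 without replicate 2 at 8 h and 4 with the shallow 3 h library added. The call was lost without replicate 1 at 8 h for Notch1, Mycn and Myc, and without replicate 2 at 8 h for Notch1 and Foxo3. Myc also lost it without replicate 1 at 0 h, 1 h or 3 h.

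Among 28 tested pluripotency factors, 6 were faster than the median gene (21.4%, against 4.54% of all tested genes) and 5 slower (17.9%, against 17.7%), with a median half-life of 1.75 h. The counts were 3 and 3 without replicate 2 at 8 h, and 4 and 2 without replicate 1 at 8 h. Sox2, a core factor of the pluripotent state, had labelled shares of 27.6% and 25% at 0 h, 23.4% and 27.7% at 1 h, 10.3% at 3 h and 0.933% and 0.957% at 8 h. Its slope was -0.68 (SE 0.0449), a half-life of 1.46 h with an adjusted p of 0.000155 against the median gene in edgeR. Nanog (-0.63), Tet2, a dioxygenase that oxidises methylcytosine (-0.69), and Tfcp2l1, a factor of the naive state (-0.75), were also faster. Esrrb, an orphan nuclear receptor of the same network, had a slope of -0.60 that missed the threshold (adjusted p 0.0942 in edgeR). Pou5f1, which encodes the factor Oct4, went the other way: 26.1% and 20.3% at 0 h, 18.8% and 21.9% at 1 h, 20.4% at 3 h and 7.20% and 9.86% at 8 h. Its 0 h, 1 h and 3 h libraries overlapped, and its half-life was 4.84 h (slope -0.21, SE 0.0589). Utf1, a chromatin protein of undifferentiated cells, kept 14.2% and 14.3% at 8 h after 32.1% and 40.1% at 0 h (slope -0.16, SE 0.0425). Klf4, a zinc finger factor of the naive state, kept 13.7% and 11% at 8 h (slope -0.34, SE 0.0434), with an adjusted p of 0.0094 for being slower in edgeR. Over the 0 h to 3 h libraries alone its slope lay below that of the median gene, by -0.46, with no call, and the slower call was lost when either 8 h library was left out. Nanog lost its call when either 8 h library, or replicate 1 at 0 h or 1 h, was left out, Tet2 without replicate 2 at 8 h and Tfcp2l1 without replicate 1 at 8 h. The 4 genes Sox2, Nanog, Esrrb and Mycn were named after their values were seen.

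Zinc finger, homeobox and other regulators had short half-lives as classes, with few individual calls. Their counts stand beside 4.54% faster and 17.7% slower among all tested genes. Of 320 tested Zfp genes, many of them DNA-binding zinc finger proteins, 31 were faster (9.69%) and 9 slower, with a median half-life of 1.72 h. The 31 became 13 when either 8 h library was left out, 18 without replicate 1 at 1 h and 17 with the shallow library added. Zfp950 fell from 23.7% and 25.5% at 0 h to 3.23% at 3 h and 0.806% and 0% at 8 h (slope -1.04, SE 0.207). The 55 Zbtb and Zkscan genes had a median of 1.79 h, with 5 faster and 2 slower; Zkscan1 (-0.92) and Zbtb37 (-0.79) were among the faster. Sox and Klf factors (25 genes) had a median of 1.75 h with 5 faster and 2 slower, and homeobox and forkhead factors (33) one of 1.78 h with 4 faster, Foxj3 (-0.74) among them, and 1 slower. BMP, Notch and Wnt target regulators (19) had a median of 1.76 h with 1 faster and 1 slower. The 1 faster member (5.26%) was near the share of all tested genes, so only the median sets this class on the short-lived side. Smad7, the inhibitory Smad, had a slope of -0.66. Immediate early genes (32) had a median of 1.83 h with 3 faster and 2 slower. Zfp36l2, which itself binds AU-rich elements, fell from 20.6% and 27.6% to 0% and 0.254% (slope -0.95, SE 0.188), while Jund, an AP-1 subunit, kept 7.09% and 5.48% at 8 h (slope -0.17, SE 0.0562). The MYC and MAX network (14) had a median of 1.83 h with 2 faster and 1 slower, the slower one being Bmyc (-0.28). The list of p53 targets and apoptosis genes (29) had a median of 1.84 h with 3 faster and 4 slower. The growth arrest gene Gadd45a was faster (-0.73) and the apoptosis effector Bax slower (-0.19). Counts this small depend on single libraries. Without replicate 2 at 8 h the faster members numbered 2 for Zbtb and Zkscan and 1 for homeobox and forkhead genes. They numbered 1 for immediate early genes and 1 for p53 targets and apoptosis genes. Without that library no Sox or Klf factor was slower in edgeR (2 at an unadjusted p under 0.05). In that setting Zfp950, Zbtb37, Foxj3, Zfp36l2, Gadd45a and Bmyc lost their calls, and without replicate 1 at 8 h Zfp36l2 and Smad7 did.

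Cell cycle, replication and chromatin genes had median half-lives of 1.88 h to 2.06 h, against 2.11 h for all tested genes, with members at both ends. The cell cycle list (31) holds cyclins and CDK inhibitors, and also kinases, phosphatases and E2F factors. It had a median of 1.88 h with 5 faster (16.1%, against 4.54% of all tested genes) and 2 slower. The CDK inhibitor Cdkn1b (-0.69) was among the faster, and Cdkn1c, another CDK inhibitor (-0.11), among the slower. DNA replication genes (41) had a median of 2.03 h with 4 faster and 4 slower. The licensing factor Cdt1 went from 34.2% and 38.6% at 0 h to 13.4% at 3 h and to 0.933% and 1.2% at 8 h (slope -0.71, SE 0.0558). Thymidine kinase Tk1 started alike at 30.9% and 33.6%, was at 30.1% at 3 h and kept 8.45% and 10.0% at 8 h (slope -0.13, SE 0.0498). Chromatin writers and remodellers (42) had a median of 2.06 h with 6 faster (14.3%) and 3 slower. Ezh1, a histone H3 methyltransferase, had a slope of -0.84, and the deacetylase Hdac1 one of -0.19. The 5 faster genes of the cell cycle list became 0 without replicate 1 at 8 h in edgeR (3 at an unadjusted p under 0.05). They became 1 without replicate 1 at 1 h (Cdkn1b lost its call in both), 2 without replicate 2 at 8 h and 3 without replicate 1 at 0 h. The 6 faster chromatin genes became 1 without replicate 2 at 8 h, 3 without replicate 1 at 8 h and 2 with the shallow library added. For DNA replication 1 to 2 members were faster and 1 to 2 slower when an 8 h library was left out, and 1 was slower without replicate 1 at 1 h.

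The genes of RNA handling spread around the median too. The m6A writers, readers and erasers (22 tested) had a median half-life of 2.18 h. No member was faster than the median gene, against 4.54% of all tested genes. The 4 slower members (18.2%) were near the 17.7% of all tested genes. Among the 4 were Hnrnpc (-0.20) and Hnrnpa2b1 (-0.25), RNA-binding proteins described as indirect readers. SR and hnRNP splicing factors (34) had a median of 2.15 h with 3 faster and 10 slower. Srsf5 (-0.66) and Tra2a (-0.65), both SR-type splicing activators, were faster, and U2af2 (-0.13), the large subunit of the factor that binds the polypyrimidine tract, was slower. Total RNA of U2af2 rose by 0.16 (log2 per hour), and its labelled share ended at 7.71% and 8.27%. No splicing factor was called faster by edgeR when either 8 h library or replicate 1 at 1 h was left out, or with the shallow library added (1 to 4 at an unadjusted p under 0.05). Decay factors (51) had a median of 1.97 h with 1 faster and 8 slower. The 8 (15.7%) were again near the 17.7% of all tested genes. The slowest were Lsm4 (-0.15) and Lsm7 (-0.15), subunits of the ring that binds deadenylated mRNA ends. Without replicate 2 at 8 h the slower members numbered 4 among decay factors and 2 among m6A writers, readers and erasers, and 2 among the latter also without replicate 1 at 8 h.

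Housekeeping classes filled the long-lived side, with cytosolic ribosomal proteins and the respiratory chain at its end. Of 84 tested ribosomal protein genes, 78 were slower than the median gene (92.9%, against 17.7% of all tested genes), none was faster, and the median half-life was 7.64 h. Their label was low from the start, with a median labelled share of 17% at 0 h against 30.9% for all tested genes, and of 8.63% at 8 h. Rps26 had 13.6% in both 0 h libraries, 12.8% and 14.1% at 1 h, 11.9% at 3 h and 8.70% and 9.04% at 8 h. Its 8 h libraries lay below all of the earlier ones. Its slope was -0.09 (SE 0.0419), an extrapolated half-life of 11.6 h, and its adjusted p was 1.26e-19 against the median gene in edgeR. Rps24 went from 10.4% and 9.76% to 5.53% and 6.24%. For Rplp1, a stalk protein, and Rps9 the fall did not pass the test (adjusted p 0.151 and 0.126 in edgeR), although the labelled share of Rplp1 went from 12.6% and 13.7% to 8.75% and 9.18%. The other 6 members were not called slower, and the lowest slopes among them belonged to Rpl15 (-0.52) and the paralogue Rpl7l1 (-0.53). Rpl15 had 43.8% and 45.3% at 0 h and 3.39% and 3.66% at 8 h. The list takes every Rpl, Rps and Rplp symbol, so it holds paralogues such as Rps27l and Rpl7l1, and reads of ribosomal protein genes can be split with their many pseudogenes.

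Ribosomal protein mRNAs are known for a terminal oligopyrimidine tract, a run of C and T that starts with C at the first base and through which mTOR controls their translation. Since these cells were held with an mTOR inhibitor, the RefSeq start of each gene (GRCm38.p6) was searched for a C followed by at least 7 bases that are all C or T, on the gene's strand and within 15 bases of the start. The windows of 30 bases around the starts of 5 ribosomal protein genes are printed to show what such a run looks like in long-lived members and in Rpl15, with the run in capitals.
Rps9 (chr7:3704026-3704055, plus strand): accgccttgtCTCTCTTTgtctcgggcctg
Rps24 (chr14:24490663-24490692, plus strand): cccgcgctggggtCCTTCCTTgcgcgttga
Rps18 (chr17:33955651-33955680, minus strand): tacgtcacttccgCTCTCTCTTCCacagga
Fau (chr19:6057932-6057961, plus strand): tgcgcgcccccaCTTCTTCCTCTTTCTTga
Rpl15 (chr14:18270972-18271001, minus strand): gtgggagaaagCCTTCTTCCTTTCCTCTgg
Such a run lay at the start of 26 of the 62 tested ribosomal protein genes with a RefSeq start (41.9%), of 12.1% of the 9069 tested genes with one, and of 10.8% of all 27025 genes in the table. Within the class, members with a run had a median half-life of 7.59 h and members without it 6.61 h. Outside ribosomal proteins and translation factors, genes with a run had a median slope of -0.49 (1069 genes) and genes without one -0.48 (7911 genes). Rpl15, among the least stable ribosomal protein mRNAs here, has a run of 17 bases. RefSeq starts are not start sites measured in these cells, so a missing run says nothing about the tract itself.

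Most nuclear-encoded subunits of the respiratory chain were slower than the median gene as well. Of 37 tested complex I subunits, 34 were slower than the median gene and none faster, with a median half-life of 7.87 h. Of 43 subunits of complexes II to IV and ATP synthase, 40 were slower and none faster, with an extrapolated median of 9.58 h. Ndufa1, a complex I subunit, had 26.0% and 25.8% at 0 h, 22% and 21.3% at 1 h, 20.5% at 3 h and 16.4% and 14.9% at 8 h (slope -0.02, SE 0.0534). Each time lay below the one before, and the whole fall was by less than that of the median gene. Cox6a1, a subunit of cytochrome c oxidase, went from 18.5% and 19.5% to 13.5% and 13.0% (slope 0.04, SE 0.0456), and its slope did not differ from 0 (adjusted p 0.441 in edgeR). With each gene's own total as the offset, which takes out changes of total RNA, the class medians were -0.17 for complex I and -0.16 for complexes II to IV and ATP synthase, against -0.13 and -0.10, with 35 and 42 members slower. In that setting ribosomal proteins had a median of -0.12 with 82 slower, nearer to 0 than both, so the order of these classes turned. The 11 tested transcripts of the mitochondrial genome were rRNAs and tRNAs, with no mRNA among them. They had a median half-life of 5.43 h with 7 slower and none faster. The transcript mt-Rnr1, the small ribosomal RNA of mitochondria, carried little label at any time, with 3.53% and 3.84% at 0 h and 2.27% and 2.34% at 8 h.

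Other mitochondrial classes were long-lived to a smaller degree. Mitochondrial ribosomal proteins (76) had a median of 3.33 h with 41 slower and none faster, and Mrpl54 (-0.09) and Mrpl34 (-0.10) had the highest slopes. Import components (23) had a median of 3.07 h with 10 slower and 1 faster. Tomm7, a small subunit of the outer membrane translocase, kept 11.6% and 12.0% at 8 h after 23.0% and 21% at 0 h, and Tomm6 of the same complex 9.76% and 11.3%. Timm29, of the inner membrane carrier translocase, was the faster one (40.0% and 30.2% at 0 h, 0.373% and 0.779% at 8 h, slope -0.76). Without replicate 2 at 8 h the slower members numbered 26 among mitochondrial ribosomal proteins and 6 among import components, and Timm29 lost its call when either 8 h library was left out. Tricarboxylic acid cycle genes (21) had a median of 3.61 h with 12 slower and none faster. Chchd10 and Chchd2, a pair of related intermembrane space proteins, had slopes of -0.11 and -0.08, the second with no fall past the threshold (adjusted p 0.0618 in edgeR).

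The cytoskeleton was another long-lived class, with 29 of 36 members slower than the median gene, none faster, and a median half-life of 4.73 h. Actb, cytoplasmic beta-actin, had 19.8% and 23.1% at 0 h, 20.5% and 19.9% at 1 h, 16.7% at 3 h and 8.86% and 8.68% at 8 h. Its slope was -0.09 (SE 0.038), an extrapolated half-life of 10.8 h with an adjusted p of 9.99e-23 against the median gene in edgeR. Tubb2b, a beta-tubulin, was at 36.6% at 3 h, within its 0 h and 1 h range of 34.4% to 39.8%, and at 20.9% and 22.1% at 8 h. Tuba1b, an alpha-tubulin, had a slope of 0.05 although its labelled share went from 24.4% and 28.2% to 7.98% and 8.22%. Its total RNA had a slope of 0.28 (log2 per hour, adjusted p 0.054 in edgeR), so a label counted per library and a share of the gene's own counts gave different pictures. The same held for Hspb1, a small heat shock protein, with a slope of -0.03, a total RNA slope of 0.21 and a labelled share that went from 32.7% and 25.8% to 8.2% and 9.22%.

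Protein quality control and metabolism followed. Proteasome subunits (36) had a median of 3.75 h with 23 slower and none faster, and Psmb2 (-0.07) and Psmb3 (-0.08), subunits of the catalytic core, had the highest slopes. Chaperones (35) had a median of 3.72 h with 22 slower and none faster, and 9 of them rose in total RNA, against 3.63% of all tested genes. Ppib, a prolyl isomerase of the endoplasmic reticulum, kept 13.6% and 11.6% at 8 h after 22.9% and 23.3% at 0 h. Glycolysis genes (21) had a median of 3.60 h with 10 slower and none faster, and 7 rose in total RNA, Pfkl and Tpi1 among them (by 0.19 and 0.22 log2 per hour). With the own total as the offset the glycolysis median was -0.36 in place of -0.28 and 8 were slower.

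Antioxidant genes held both ends at once. Of 28 tested, 16 were slower and 3 faster, with a median of 3.65 h. The enzymes Sod1 and Gpx1 were long-lived: Sod1 had 20.9% and 23.0% at 0 h and 11.7% and 12.5% at 8 h (slope -0.05), and Gpx1 went from 26.1% and 24.7% to 12.4% and 11.5% (slope -0.05). The regulators of the same response were short-lived: the transcription factor Nfe2l2 had 38.1% and 38.6% at 0 h, 17.5% at 3 h and 2.20% and 0.475% at 8 h (slope -0.74), and its inhibitor Keap1 had a slope of -0.71. The remaining faster gene was neither of these, so the faster calls were not all of regulators. The lowest slope in the list was -1.19. In the lysosome list 12 of 30 were slower and none faster, with a median of 2.63 h, while Tfe3, a transcription factor for lysosomal genes that is on the autophagy list (34 genes, median 1.91 h, 2 slower), was the 1 faster gene there (-0.66). Leaving out replicate 1 or 2 at 8 h gave 7 or 6 slower lysosomal genes and 1 faster antioxidant gene, with Keap1 and Tfe3 not called in either case and Nfe2l2 not called in the second.

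Within translation, the order was from ribosome to biogenesis. Translation factors (36) had a median of 2.98 h with 17 slower and none faster. Aminoacyl-tRNA synthetases (20) had one of 2.71 h with 9 slower and none faster. Ribosome biogenesis genes (42) had one of 2.44 h with 10 slower (23.8%, against 17.7% of all tested genes) and none faster. Eef1a1, the factor that delivers aminoacyl-tRNA, had 27.5% and 25.1% at 0 h, 24.4% and 30.3% at 1 h, 24.5% at 3 h and 16.0% and 16.5% at 8 h (slope -0.09, SE 0.0405). Its first 5 libraries overlapped. With the own total as the offset 3 translation factors and 2 biogenesis genes were faster, and 5 synthetases slower and 1 faster. Without replicate 2 at 8 h 3 synthetases were slower. Hars (-0.19) and Qars (-0.22) were the most stable synthetases. Eif5a, the hypusine-carrying factor, had a slope of -0.08 with total RNA that rose by 0.16 (log2 per hour). Rack1 (-0.10), a scaffold on the small ribosomal subunit, and Ncl (-0.09), nucleolin, belong to the 12 genes with the highest lower bound among those that fell, along with H2az2 (-0.10), a histone variant. ATF4 targets and amino acid genes (23) had a median of 2.49 h with 6 slower (26.1%) and 1 faster. The amino acid transporter Slc38a2 was the faster one (-0.63, with no call when a library at 1 h or 8 h or replicate 1 at 0 h was left out), and the biosynthetic enzymes Psat1 (-0.14) and Pycr1 (-0.09) had the highest slopes.

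**Figure D3:**
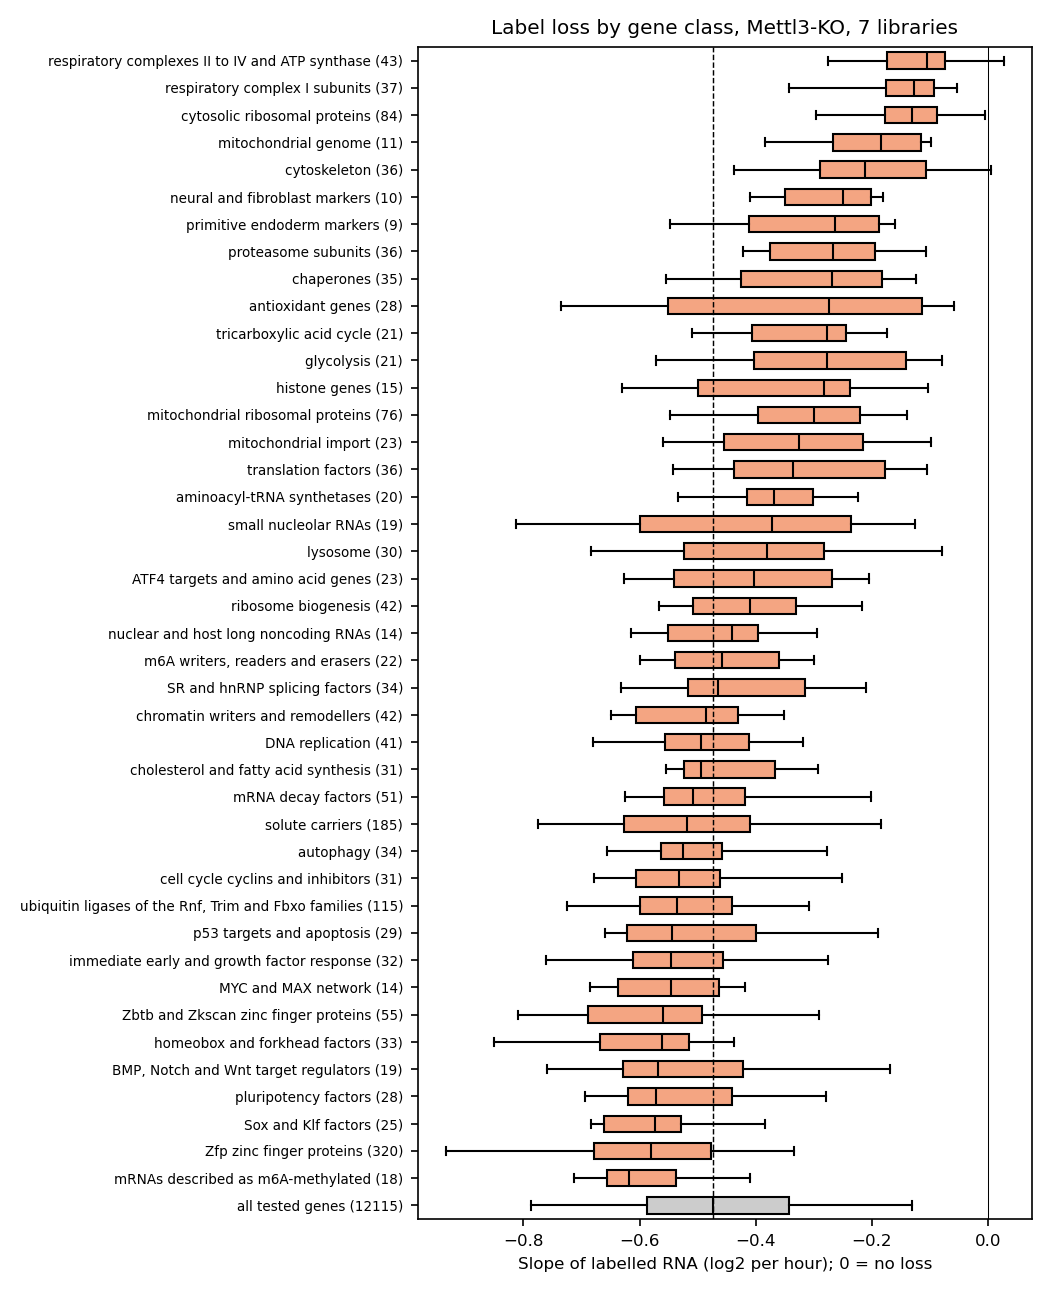
Slope of labelled RNA (log2 per hour) of the tested members of each gene class in Mettl3-KO, with the number of genes in brackets; boxes show the quartiles, bars the median, whiskers the 5th and 95th percentiles, and the dashed line the median of all tested genes. Respiratory chain and ribosomal protein genes sit nearest to 0, and the m6A-described list and the Zfp genes farthest from it.

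Lifetime also varied with gene size and level. Among the 25% of matched genes with the shortest span in RefSeq (up to 9.04 kb) the median half-life was 2.60 h and 991 were slower than the median gene; among the 25% with the longest (over 52.8 kb) it was 1.96 h with 225 slower. The 20% of genes with the highest total counts had a median of 2.44 h with 906 slower, and the 20% with the lowest one of 1.98 h with 220 slower. Precision grows with counts, so the number called grows with them as well, and across genes the Spearman correlation of level with slope was 0.190 (12115 genes, which share libraries and are not replicates). Protein-coding genes had a median of 2.10 h, 165 long noncoding RNAs one of 1.87 h and 388 pseudogenes one of 3.92 h, whose reads may be shared with parent genes.

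The label rose in 6 genes, among them Gm4535, Gm7392, Gm15198, Rps2 and Ccdc124. Replicates could lie far apart: Rps2 had 32.9% and 5.04% in the 0 h libraries and 10.8% and 11.2% at 8 h. Fuca1, a lysosomal fucosidase, was apart from all of these, with 46.8% and 63.2% at 0 h, 48.3% and 54.1% at 1 h, 51.5% at 3 h and 47.7% and 50.5% at 8 h. Its share hardly moved and its libraries overlapped at every time, whereas in WT it went from 34.0% at 0 h to 0.546% and 0.612% at 8 h. In all, 178 tested genes had conversion counts above 20% of their total at 8 h. Every library came from cells fed S4U, so conversions that arise without label were not measured. None were subtracted from the shares and slopes here. What part of a share that stays high is label, in Fuca1 or elsewhere, was not tested.

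The departure from a straight line passed the test in 9 genes (0.0743% of those tested), and 1963 had an unadjusted p under 0.05 in edgeR, while DESeq2's likelihood ratio test called 48. The count is unstable, with 0 to 668 when a library is left out, the highest without replicate 1 at 1 h. Eif3g, a subunit of the eIF3 initiation factor, had its fall late, from 15.5% at 3 h to 1.26% and 1.85% at 8 h. Sgk1, the serum- and glucocorticoid-induced kinase, had its fall early instead: 32.7% and 29.9% at 1 h, 5.55% at 3 h and 2.90% and 1.67% at 8 h. Siah1b, a ubiquitin ligase, fell between 1 h (48.6% and 55.4%) and 3 h (23.4%) and on to 2.30% and 1.53%. Total RNA over the chase rose in 440 genes (3.63%) and fell in 411 (3.39%). At an unadjusted p under 0.05 there were 3101. By edgeR no gene was called when the shallow 3 h library was added (1005 at an unadjusted p under 0.05) or when replicate 2 at 8 h was left out (1532). The calls numbered 24 without replicate 1 at 8 h, 181 without replicate 1 at 0 h, 209 without replicate 1 at 1 h and 1461 without replicate 2 at 1 h, so the changes of total RNA given for single genes rest on these libraries.

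Against WT, the knockout slopes differed unevenly over the classes. In a joint edgeR fit of the 12 deep libraries the loss was slower in Mettl3-KO for 740 of 12669 genes (5.84%) and faster for 48 (0.379%), and the median gene had a half-life of 1.76 h in WT. The 740 became 360 without WT replicate 2 at 8 h, 385 and 477 without Mettl3-KO replicates 2 and 1 at 8 h, and 480 without Mettl3-KO replicate 1 at 0 h. The 48 became 5 and 24 without Mettl3-KO replicates 2 and 1 at 8 h, 20 without WT replicate 1 at 1 h, 29 without Mettl3-KO replicate 1 at 1 h and 79 without WT replicate 1 at 0 h. The scale behind this has to be read with the start: WT began at 39.4% and Mettl3-KO at 26.1% and 26.6%, and the median difference of the slopes was 0.11. Label was scaled to library totals, so changes of a gene's total RNA enter its difference. With TMM on the conversion counts, which takes out the loss common to all genes, the median difference was 0.01, and 368 were slower and 200 faster. Of 36 cytoskeleton genes 22 were slower in Mettl3-KO, with a WT median half-life of 2.01 h against 4.73 h, and 14 were slower and 1 faster with TMM on the conversion counts. For complexes II to IV and ATP synthase 18 of 44 were slower and 1 faster (WT median 2.81 h against 9.58 h), for complex I 12 of 37 (2.74 h against 7.87 h), and for mitochondrial ribosomal proteins 23 of 76 (1.82 h against 3.33 h). With TMM on the conversion counts these became 11 of 44, 8 of 37 and 13 of 76, beside 2.9% of all tested genes. With all 14 libraries 2.37% of genes were slower in Mettl3-KO, and 7 of the 36 cytoskeleton, 6 of the 44 and 3 of the 37 respiratory genes.

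Zfp genes held a smaller share of genes slower in Mettl3-KO (2.15%) than the 5.84% of all tested genes. The share was 3.53% for cytosolic ribosomal proteins. It was again 3.53% with TMM on the conversion counts and with all 14 libraries, above the 2.9% and 2.37% of all tested genes there. The order of this class against all genes thus depended on the setting. The mitochondrial genome and the m6A-described mRNAs had no such gene. In lists as small as their 12 and 18 genes, 0 calls cannot be told from a share of 5.84%. Low shares were not particular to these lists. Slower in Mettl3-KO were 0 of 42 chromatin genes, 0 of 55 Zbtb and Zkscan genes and 1 of 116 ubiquitin ligases of the Rnf, Trim and Fbxo families. Cytosolic ribosomal proteins were already long-lived in WT (median 6.06 h), and 3 of 85 were slower in Mettl3-KO. The rRNAs and tRNAs of the mitochondrial genome had a median of 5.43 h without Mettl3 and 5.64 h with it. In the joint fit 0 of 12 mitochondrial genome transcripts were called by edgeR, with 1 slower at an unadjusted p under 0.05. For Zfp genes the medians were 1.64 h and 1.72 h, with 7 of 325 slower and 1 faster. The m6A-described mRNAs had 1.62 h without Mettl3 and 1.74 h with it, with 0 of 18 called in either direction by edgeR, and 1 slower and 1 faster at an unadjusted p under 0.05. With TMM on the conversion counts 2 of the 18 were called faster in Mettl3-KO. The median difference of the slopes was 0.04 for ribosomal proteins and 0.07 for Zfp genes by the totals and turned to -0.05 and -0.02 with TMM on the conversion counts, so its sign depended on the scaling. Individual pairs illustrate the contrast. Sox2 had slopes of -0.68 in Mettl3-KO and -0.57 in WT (adjusted p 0.364 for the difference in edgeR). Utf1 had -0.16 and -0.55 (adjusted p 0.000491), with WT shares of 2.78% and 2.61% at 8 h against 14.2% and 14.3%. Tubb2b had 0.04 and -0.47, with WT shares of 5.57% and 7.31% at 8 h against 20.9% and 22.1%.

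**Figure D4:**
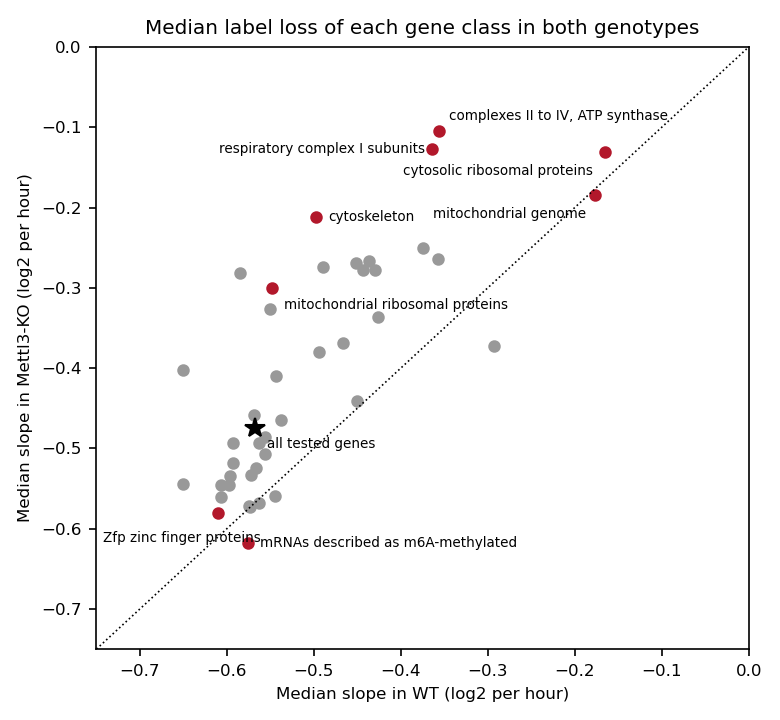
Median slope of each gene class in Mettl3-KO (vertical axis, 7 libraries) against the same class in WT (horizontal axis, 12-library fit), both in log2 per hour; the star is the median of all tested genes and the dotted line marks equal slopes. The cytoskeleton and the respiratory chain lie far above the line, and ribosomal proteins, the mitochondrial genome and Zfp genes near it.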

How the data were processed

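The authors deposited whole-number counts for 36336 entries in 2 tables, of all reads and of T>C conversions. Per the submitters' processing notes the tools included Trim Galore 0.4.0, featureCounts, Subread 1.5.0 and edgeR 3.32.1, with build mm10. The aligner, the conversion caller and the thing counted as a conversion, read or base, are not given in the sources. In 15 tested genes a library held more conversion than total counts. The authors' deposited table of half-lives, a score with no unit in its header, had a median of 2.52 for 6964 shared genes, against 1.88 h here (Spearman 0.835 across genes). The 1 nameless entry was left out.

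Conversion counts were fitted on hours with edgeR 4.0.16 (R 4.3.3, limma 3.58.1), glmQLFit with robust dispersion, on library sizes that were TMM-scaled total counts. The test against the median gene added the median slope times hours to the offset. Standard errors are Wald errors of the fit. The threshold was 0.05 after Benjamini-Hochberg adjustment. DESeq2 1.42.0 was an alternative. The procedure was tested on simulated data. Groups came from titles. The WT comparison used genotype, hours and their interaction in 12 libraries.

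The named genes are Mettl3, the 12 short-lived genes with the lowest upper 95% bound and the 12 long-lived falling genes with the highest lower bound, the 4 abundant genes with no detected fall, 4 non-linear genes and up to 2 members per list at either end, all with at least 50 conversion counts at 0 h; the genes whose label rose and the others said so in the text were named after their values were seen. Members, gene lists (42) and this rule were chosen with earlier results of these data known. A planned description by 3' UTR length, AU-rich motifs and codons was not made, since no sequence beyond windows around RefSeq starts was used here; gene span and start runs from RefSeq GRCm38.p6 (11709 of 12115 genes matched) were taken instead, after the data were seen. Values of some genes that the rule names are not reported here. A normalized log2 table was not used.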

Additional observations from a re-analysis of the deposited data

Results flagged for a closer look

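The loss of label differed between Mettl3-KO and WT in 788 genes by the test of the interaction of genotype and hours (edgeR, 12 libraries, adjusted p under 0.05). Of the genes named above, the loss was faster in Mettl3-KO for Gm37423 (difference of the slopes -1.59, log2 per hour) and B230354K17Rik (-0.35). All others named with a difference past the threshold lost label more slowly in Mettl3-KO, by label scaled to the library total.

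Among cytoskeleton genes the difference was 0.24 for Actb, 0.42 for Tuba1b, 0.52 for Tubb2b and 0.40 for Tubb3. Among genes of mitochondria it was 0.24 for Tomm7, 0.30 for Tomm6, 0.28 for Chchd10, 0.24 for Chchd2, 0.32 for Mrpl54, 0.49 for Mrpl34, 0.32 for Ndufa7 and 0.32 for Cox6a1. Among regulators of transcription and growth it was 0.50 for Jund, 0.39 for Utf1, 0.72 for Bmyc, 0.56 for Tk1 and 0.34 for Bax. Among genes of RNA and translation it was 0.38 for Ncl, 0.41 for Rps27l, 0.24 for Hnrnpc, 0.31 for Lsm4, 0.37 for Lsm7, 0.45 for U2af2, 0.27 for Hars and 0.40 for Eif5a. Among the rest it was 0.27 for H2az2, 0.45 for Tpi1, 0.43 for Hspb1, 0.65 for Fuca1, 0.44 for Gpx1, 0.29 for Psmb2 and 1.82 for Gm4535. Gm4535 had no total count in 1 of the 0 h libraries of Mettl3-KO and Uty none in the 3 h library of WT, so such low genes carry little weight. The median difference over all genes was 0.11, which is part of each of these values. Changes of a gene's total RNA are part of them too. Conversions without label were not subtracted for any of these genes, Fuca1 with its nearly unchanged share in Mettl3-KO included. For Tuba1b, Tpi1, Hspb1, U2af2 and Eif5a the total RNA slopes given above for Mettl3-KO were positive. The difference was not fitted with each gene's own total as the offset.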

How the results depend on the processing

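With TMM on the conversion counts, which removes the shared loss by construction, 2308 genes fell and 1907 rose, the median slope was -0.057 and 1039 genes were faster than the median gene. In the 0 h to 3 h libraries only, 419 fell, 0 rose, the median slope was -0.23, 0 were faster and 0 slower in edgeR (15 rising, 733 faster and 370 slower at an unadjusted p under 0.05), and the library share fell by 0.17 per hour with p above the threshold. There the slope minus that of the median gene reversed for Gm15198 (-0.19), Siah1b (0.35) and Klf4 (-0.46), none past the threshold. Siah1b also ranged from -0.081 to 0.0086 when 1 library was left out, the highest without replicate 2 at 8 h. Rpl15 turned to 0.0067 with its own total as offset and Eif3g to -0.014 in the 1 h to 8 h libraries only. Genes that rose numbered 2 with the own total as offset, 2 with DESeq2, 42 with no filter, 3 with the stricter filter and 11 over 1 h to 8 h. The median slope was -0.50 with no filter, -0.47 with the stricter one and -0.52 over 1 h to 8 h. Genes faster than the median gene numbered 281 with no filter, 363 with the shallow 3 h library added and 253 in the 12-library fit; 266, 354 and 244 of these were among the 550. Non-linear genes numbered 105 with the shallow library and 48 with DESeq2. For the WT comparison, TMM on the conversion counts gave 368 slower and 200 faster, and all 14 libraries gave 301 and 30 (331 in all). Total RNA changed in 0 genes with the shallow library in edgeR (1005 at an unadjusted p under 0.05), 1517 with no filter and 1458 with DESeq2. The difference in slope between genes of short and long span went from 0.12 to 0.16 over 0 h to 3 h.

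Leaving out 1 library in turn gave 1 to 13 rising genes, median slopes from -0.49 to -0.45, 177 to 716 faster and 1392 to 2350 slower genes, 0 to 668 non-linear genes, and 0 to 1461 genes with changed total RNA. For the WT comparison it gave 360 to 851 slower, 5 to 79 faster and 390 to 905 differing genes in all. The lowest counts of faster genes came without replicate 2 at 8 h (177), replicate 1 at 8 h (304) and replicate 1 at 1 h (339). The cause of these shifts was not tested. Replicate numbers did not pair the samples, with correlations of -0.05, -0.01 and 0.04, and with a replicate block 463 genes were faster and 2045 slower, 457 and 2035 of them the same genes. The depth of the 8 h libraries limits slopes of short-lived genes, several of which had 0 conversion counts there.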
